A study of Mus musculus with 48 samples.

Results

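The genes described here are 8 CC chemokine genes, *Ccl2*, *Ccl3*, *Ccl4*, *Ccl5*, *Ccl6*, *Ccl7*, *Ccl9* and *Ccl12*, and the chemokine receptor gene *Ccr2*. They are a part of the CC family chosen by name, with earlier results of these data known, so the choice was not blind to the values. They make up 9 of the 46983 genes listed in the count tables, and 30 other CC family genes are described apart from them. All 9 passed the filter of more than 10 counts in total, which 19970 genes passed. Bulk RNA was sequenced from the cerebral cortex of C57Black/6 male mice aged 3 months in 48 libraries of 11 groups. In the MCAO groups the middle cerebral artery had been closed by coagulation and cut through, which occludes it permanently and leaves a small lesion in the parietal cortex. The sham groups went through the same operation with the artery spared, and the 4 control libraries came from intact cortex. Sham (4 libraries each) and MCAO were sampled at 3 h, 12 h, 24 h, day 3 and day 7, with 5 MCAO libraries at each time except 24 h, which had 4. By the study's methods the tissue was the injured cortical region and held affected and spared tissue alike, so a level is an average over both. The study's results instead describe the bulk samples as almost the whole hemisphere on the injured side, so the amount of spared tissue is uncertain. The series text speaks of 3 hemispheres per time point and the labels give 4 or 5 libraries per group. The bulk replicates are counted in mice in the study's text, although no label ties a library to an animal.

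CC chemokines are small secreted proteins that draw leukocytes along a gradient by binding G protein-coupled receptors on their surface. CCL2, CCL7 and CCL12 are the classical ligands of CCR2, the receptor by which inflammatory monocytes leave the bone marrow and enter inflamed tissue, whereas CCL3, CCL4 and CCL5 are inflammatory chemokines that draw macrophages and T cells, CCL3 and CCL5 in part through CCR1. CCL6 and CCL9 are rodent chemokines of the CCR1 group. In the injured brain, microglia, macrophages and astrocytes are known sources of these ligands.

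The 8 ligand genes lie in 2 clusters on chromosome 11 (GRCm38). *Ccl2* (82035571-82037453), *Ccl7* (82045712-82047525) and *Ccl12* (82101845-82103400), all on the plus strand, span 67.8 kb. At a distance of 1422.4 kb follow *Ccl5* (83525778-83530518), *Ccl9* (83572919-83578636), *Ccl6* (83587882-83593087) and *Ccl3* (83647844-83649355) on the minus strand and *Ccl4* (83662584-83664683) on the plus strand, within 138.9 kb. *Ccr2* lies on chromosome 9 (124101950-124113557, plus strand). No word of 50 bases from the last 500 bases of the members' transcripts occurred in a transcript of another gene, so no near-identical annotated copy was found that could take up their reads. *Ccl2* and *Ccl6* each overlap a gene on the opposite strand, and these held 0 and 4 counts in sum over all 48 libraries.

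RefSeq promoters were at hand for 5 of the 9 members. The 250 bases before the transcription start are printed for *Ccl6* and *Ccl12*, which passed the test at 3 of the 5 times, as did *Ccl4*, and for *Ccl9*, the neighbor of *Ccl6* on the same strand. Capitals mark matches, on either strand, to the κB motif by its name, to the AP-1 motif TGANTCA, to TATAAA or, by its name, to the core of the interferon-stimulated response element.
Ccl12 (chr11:82101595-82101844, plus strand, GRCm38.p6): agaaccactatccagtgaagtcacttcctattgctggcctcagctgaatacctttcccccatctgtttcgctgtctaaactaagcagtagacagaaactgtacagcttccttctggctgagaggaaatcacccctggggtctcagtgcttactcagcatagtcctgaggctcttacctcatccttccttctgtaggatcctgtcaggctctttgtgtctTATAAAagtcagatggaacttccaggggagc
Ccl6 (chr11:83593088-83593337, minus strand, GRCm38.p6): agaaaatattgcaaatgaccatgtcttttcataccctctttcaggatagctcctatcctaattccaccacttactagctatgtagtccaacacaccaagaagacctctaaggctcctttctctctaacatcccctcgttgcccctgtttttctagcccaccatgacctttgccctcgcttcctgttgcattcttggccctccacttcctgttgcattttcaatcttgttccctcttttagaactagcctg
Ccl9 (chr11:83578637-83578886, minus strand, GRCm38.p6): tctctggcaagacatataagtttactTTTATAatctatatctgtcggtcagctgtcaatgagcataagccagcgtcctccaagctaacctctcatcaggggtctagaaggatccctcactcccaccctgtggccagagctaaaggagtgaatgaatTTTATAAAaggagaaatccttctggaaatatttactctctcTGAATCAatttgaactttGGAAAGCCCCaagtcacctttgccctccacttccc

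The *Ccl12* stretch held a TATAAA that starts 31 bases before the transcription start and no other match. The *Ccl6* stretch held none of the 4 motifs, and neither did those of *Ccl3* and *Ccr2*. The *Ccl9* stretch held a κB match 35 bases before the start, read on the opposite strand, a TGANTCA match 53 bases before it, and 3 matches to TATAAA, of which a pair overlap in the run of capitals 94 bases before the start. The longest run that *Ccl6* and *Ccl9* shared was 13 bases. Of the 32817 RefSeq promoters of the same length, 7.25% held the κB motif, 6.75% TGANTCA, 12.4% TATAAA and 2.97% the interferon-stimulated core. A match is a description of the letters and not of a bound site.

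Without occlusion the ligands were close to the limit of detection. The libraries held 1522668 to 2826735 counts on genes, with a median of 1935855, so that a single count corresponds to 0.363 to 0.632 CPM, the usual scaling of counts by the size of the library, here with TMM-normalized sizes. Of the 24 control and sham libraries, *Ccl4* was at 0 in 22, *Ccl2* in 20, *Ccl3* and *Ccl7* in 19 each, *Ccl5* and *Ccl12* in 14 each, *Ccr2* in 12 and *Ccl9* in 8. *Ccl6* was the exception, with 1 to 14 counts in these libraries (median 4) and 2.38 ± 1.67 CPM (SD, n = 24). The reads come from the polyadenylated end of each transcript (QuantSeq), so that a transcript gives about the same number of reads whatever its length, and counts of different genes are compared here on that footing.

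After MCAO the 8 ligands together held 40.2 ± 14.7 CPM at 3 h, 105 ± 91.0 at 12 h, 71.0 ± 38.9 at 24 h, 91.7 ± 80.5 on day 3 and 63.2 ± 56.8 on day 7 (SD, n = 5, and n = 4 at 24 h), against 2.16 to 5.66 CPM in the means of the shams and the control. In summed ligand counts, 23 of the 24 MCAO libraries lay above the highest sham or control library, which held 26 counts, and the exception was day 3 replicate A with 17. In bulk tissue more cells of a type and more RNA per cell cannot be told apart. The levels of the single genes are shown in the plot of all libraries.

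**Figure D1:**
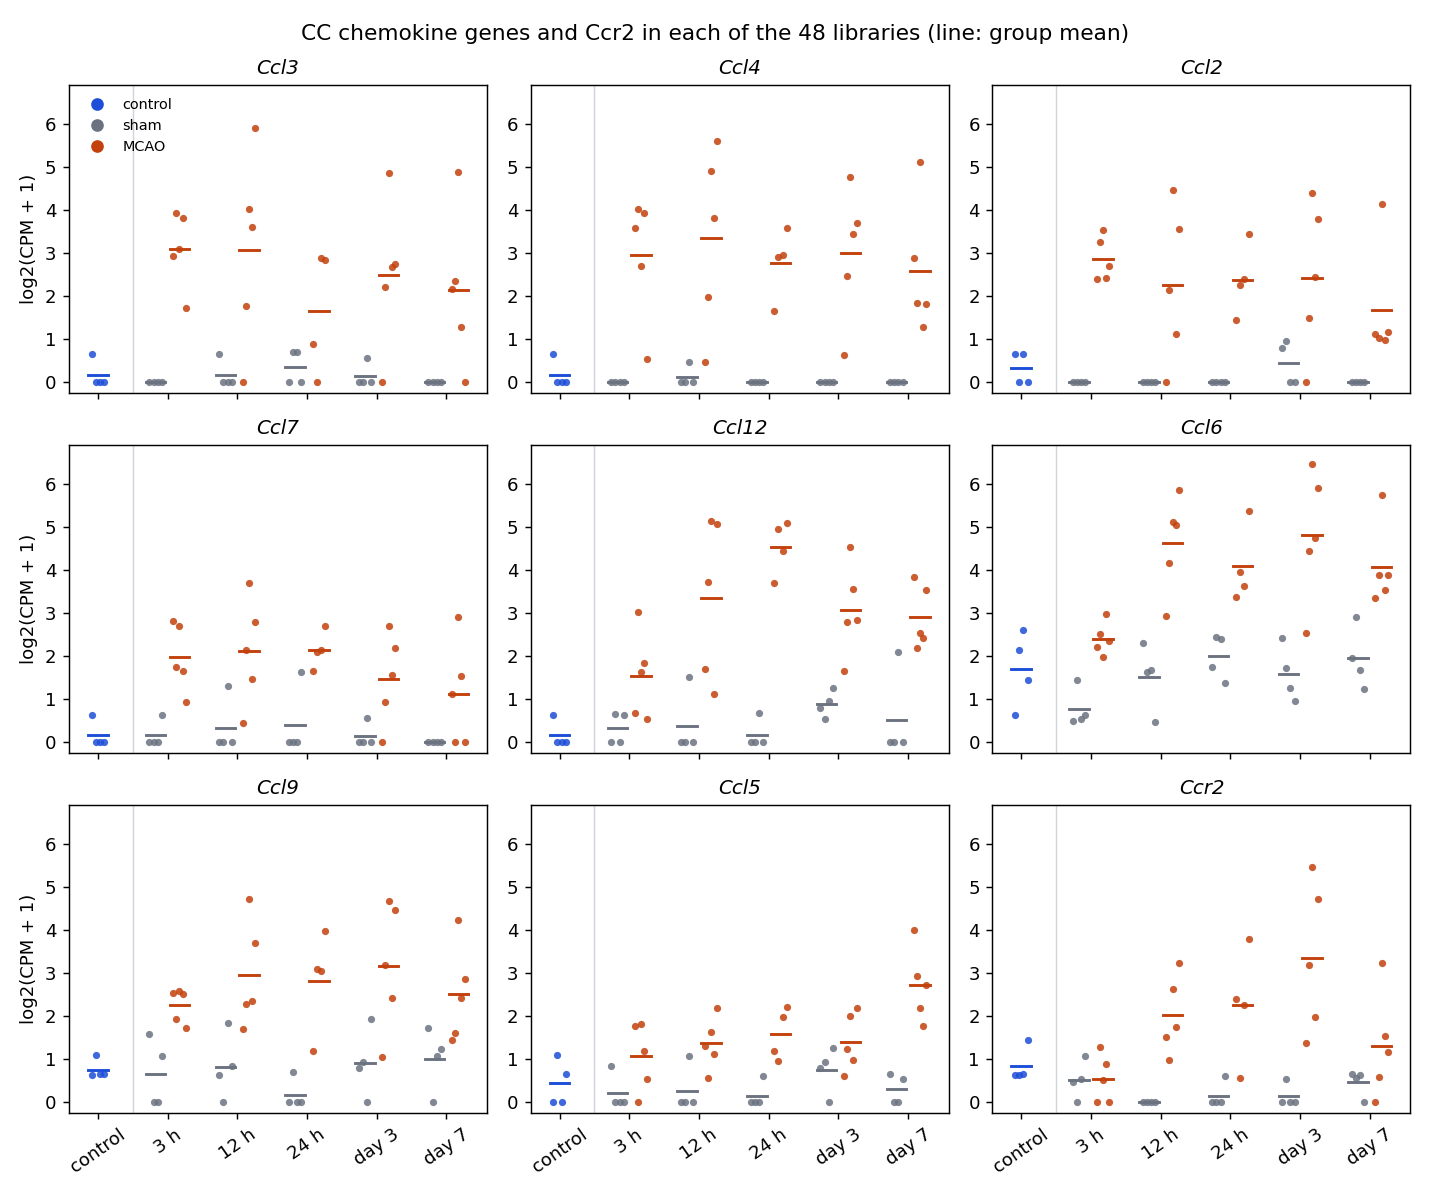
Each panel shows a gene, with log2(CPM + 1) on the y axis and the control followed by the 5 times on the x axis. Each point is a library (blue control, grey sham, red MCAO) and each line is the group mean. The shams of *Ccl4*, *Ccl3* and *Ccl2* sit at or near 0 at every time, *Ccl12* after MCAO is highest at 24 h, *Ccr2* on day 3 and *Ccl5* on day 7, and the MCAO libraries of a time spread widely.

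MCAO was compared with the sham of the same time by edgeR's quasi-likelihood test in a fit of all 48 libraries, and calls required an adjusted p (Benjamini-Hochberg) below 0.01 together with a log2 fold change beyond 0.58 in either direction. At 3 h, 0 of the 9 members were called, where 0.110% of all tested genes were; 8 of the 9 had an unadjusted p under 0.05 (1688 of the 19970 genes did), and DESeq2 called 1, *Ccl4*. At 12 h, 3 members were called higher after MCAO (*Ccl4*, *Ccl6*, *Ccl12*), beside 0.411% of all genes. At 24 h, 1 was (*Ccl12*), beside 0.0901%. On day 3, 5 were (*Ccl4*, *Ccl6*, *Ccl9*, *Ccl12*, *Ccr2*), beside 4.02%, and on day 7, 3 were (*Ccl4*, *Ccl5*, *Ccl6*), beside 3.50%. No member was called lower at any time, and all 9 fitted differences were above 0 at each of the 5 times. The median fitted log2 fold change of the members was 3.13, 4.76, 4.65, 4.0 and 4.41 at the 5 times in order, beside 0.00 to 0.06 over all genes tested.

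These calls rested on few counts, and single libraries moved them. At 12 h, 1 member was called without sham replicate A, B or C or without MCAO replicate C or E, and 0 without sham replicate D. At 24 h, 0 were called without sham replicate B or D. On day 3, 2 were called without sham replicate A, B or C or MCAO replicate C, and 3 without sham replicate D or MCAO replicate E. On day 7, 1 was called without sham replicate A, B or D or MCAO replicate C. *Ccl6* and *Ccr2* on day 3 stayed called in each of the 9 fits that left out a library of the groups compared and in each of the 7 other alternatives.

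By the plain order of the libraries in CPM, all MCAO libraries lay above all shams of their time for 6 of the 9 members at 3 h, 3 at 12 h, 7 at 24 h, 4 on day 3 and 5 on day 7. For *Ccl9* at 3 h, *Ccl4* at 12 h and *Ccl6* on day 3 this rested on the scaling to library size. There a sham held as many raw counts as the lowest MCAO library, or more. All MCAO libraries lay above all shams in CPM for 2.27%, 2.03%, 3.73%, 4.33% and 5.38% of all tested genes. The contrast averaged over the 5 times, which was added after the values had been seen, called all 9 members higher (adjusted p from 8.45e-10 for *Ccl6* to 1.02e-05 for *Ccl5*), beside 4.89% of all genes, and did so without each library in turn.

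The operation alone moved none of the members past the threshold. By edgeR, sham against control called 0 of the 9 at 3 h, 12 h, 24 h, day 3 and day 7, beside 0%, 0.0351%, 0.0100%, 0% and 0% of all genes, and at an unadjusted p under 0.05 it gave 1 member at 12 h and 0 at the other times. DESeq2 also called 0, but it gave no adjusted p for 4 members at 12 h and for any of the 9 at 24 h, so its count at 24 h says nothing. MCAO against control called 0 members at 3 h (6 at an unadjusted p under 0.05, and 0 by DESeq2, which gave no adjusted p for 2), 3 at 12 h, 1 at 24 h, 4 on day 3 and 3 on day 7, beside 0.130%, 0.856%, 0.280%, 3.10% and 1.50% of all genes. These comparisons share their MCAO libraries with those against sham. *Ccl4*, *Ccl6* and *Ccl12* were called at 12 h, *Ccl12* at 24 h, *Ccl6*, *Ccl9*, *Ccl12* and *Ccr2* on day 3, and *Ccl5*, *Ccl6* and *Ccl12* on day 7. At 12 h, 1 was called without control replicate A, B or D or MCAO replicate E. On day 3, 2 were without control replicate A or D and 1 without control replicate B or C or MCAO replicate C. On day 7, 0 were called without any of the 4 controls or without MCAO replicate C, and 1 without MCAO replicate A.

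**Figure D2:**
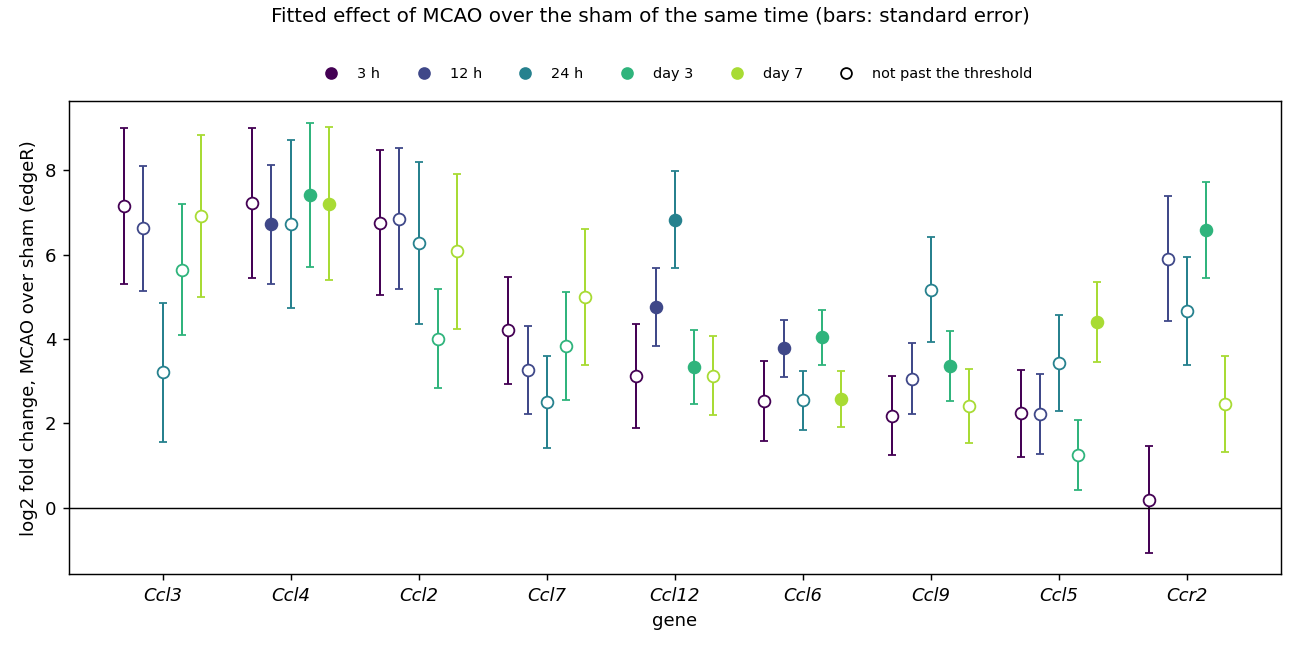
Fitted log2 fold change of MCAO over the sham of the same time (y axis, edgeR, with standard error bars) for each gene (x axis) at the 5 times (colors). Filled points passed the threshold. The bars are wide, the shams hold few or no counts, and the value of *Ccr2* at 3 h is the one near 0. Against a sham group with 0 counts the fitted value depends on the prior count and is not a bound.

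*Ccl3* and *Ccl4* encode the macrophage inflammatory proteins 1α and 1β and are neighbors, 13.2 kb apart and divergent. In the 3 h shams both were at 0 in all 4 libraries. At 3 h after MCAO *Ccl4* had 18, 32, 13, 33 and 1 counts in replicates A to E, and *Ccl3* had 11, 30, 18, 30 and 5. All 5 libraries lay above the shams for both genes, although replicate E held a single count of *Ccl4*. Against the floor of 3 counts over the sham group, *Ccl4* was at least 25.2-fold higher and *Ccl3* at least 24.5-fold, but neither passed the threshold (adjusted p = 0.0661 and 0.0861).

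At 12 h *Ccl4* had 1, 6, 55, 22 and 79 counts after MCAO and 0, 0, 1 and 0 in the shams, so that replicate A held no more counts than the highest sham. Summed over the groups and scaled to library size this is a ratio of 146 with a 95% exact counting interval of 25.8 to 5785, which covers counting error only. The rise was called (log2 fold change 6.72, standard error 1.42, adjusted p = 0.00902). The call was lost without any of the 4 shams or without MCAO replicate C or E (adjusted p up to 0.0473). It was also lost with filterByExpr (0.0103), with the replicate letter as a block (0.0131) and in the fit of the compared groups alone (0.0635). On day 3 the counts were 1, 10, 52, 20 and 27, and on day 7 they were 11, 5, 56, 3 and 4, with 0 in all shams. *Ccl4* was at least 32.4-fold higher on day 3 (adjusted p = 0.00361) and at least 23-fold higher on day 7 (adjusted p = 0.00899). The day 3 call was lost without any of the 4 shams or MCAO replicate C (adjusted p up to 0.0172). The day 7 call was lost without any of the 4 shams or MCAO replicate A or C (up to 0.0766). It was also lost with the replicate letter as a block (0.0112) and in the fit of the compared groups alone (0.0246). At 24 h, with 5, 14, 16 and 18 counts against 0, the groups did not overlap and the adjusted p was 0.194.

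*Ccl3* had its highest mean at 12 h, 17.5 ± 24.0 CPM (SD, n = 5), where replicates A to E held 0, 5, 29, 19 and 99 counts. Replicate A held none, and replicate E held more than the other 4 together. Its adjusted p over sham was 0.0128 at 12 h, 0.0142 on day 3 and 0.0168 on day 7, just outside the threshold, and 0.572 at 24 h. With no filter on low counts edgeR called *Ccl3* at 3 h, 12 h, day 3 and day 7, and in the fit of the compared groups alone at 3 h. DESeq2 called it at 12 h, day 3 and day 7, and edgeR called it at 12 h without MCAO replicate A or B (adjusted p = 0.0034 and 0.00825, from 0.0034 to 0.0808 over the libraries left out) and on day 3 without MCAO replicate A (0.00433, from 0.00433 to 0.111).

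Of the CCR2 ligands *Ccl12* passed the test at 12 h, 24 h and day 3, and *Ccl2* and *Ccl7* at no time in the edgeR fit of all groups. *Ccl2*, which encodes a main attractant of monocytes, was at 0 in every sham at 3 h, 12 h, 24 h and day 7. At 3 h after MCAO it had 7, 18, 25, 10 and 12 counts, which is 6.60 ± 2.78 CPM (SD, n = 5). It was at least 18.7-fold above the floor of the shams, and its group means after MCAO stayed between 4.21 CPM on day 7 and 7.79 CPM on day 3. No time passed the threshold (adjusted p from 0.0263 on day 3 to 0.21 at 24 h). DESeq2 called *Ccl2* at 12 h and day 7, and edgeR called it with no filter at each time except 24 h, with the compared groups alone at 3 h, and without MCAO replicate A on day 3. *Ccl7*, which encodes monocyte chemotactic protein 3, held the fewest counts of these genes over all MCAO libraries (150, against 295 of *Ccl2* and 537 of *Ccl12*), with 10, 5, 13, 5 and 2 counts at 3 h after MCAO and 0, 0, 0 and 1 in the shams. Its group means after MCAO ran from 1.92 CPM on day 7 to 4.70 CPM at 12 h, and no time passed (adjusted p from 0.0408 to 0.492).

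*Ccl12* encodes a further mouse ligand of CCR2, monocyte chemotactic protein 5. At 3 h after MCAO it had 1, 15, 5, 6 and 1 counts against 0, 1, 0 and 1 in the shams, so the groups overlapped, and the adjusted p was 0.437. At 12 h it had 6, 25, 65, 2 and 55 counts against 0, 0, 5 and 0, with replicate D below the highest sham. At 24 h it had 28, 64, 49 and 54 counts against 0, 0, 1 and 0, and all 4 libraries were high. The mean of 23.9 ± 9.54 CPM (SD, n = 4) was the highest of its groups, and the ratio of summed counts over sham was 156 (95% exact counting interval 27.8 to 6212). *Ccl12* was called at 12 h (log2 fold change 4.76, standard error 0.92, adjusted p = 0.00243), at 24 h (6.83, 1.15, adjusted p = 0.000771) and on day 3 (3.33, 0.87, adjusted p = 0.00903), and on day 7 its adjusted p was 0.0254. At 24 h the call was lost without sham replicate B or D (adjusted p = 0.0102 and 0.0131, from 0.000934 to 0.0131 over the libraries left out).

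On day 3 *Ccl12* had 4, 13, 44, 22 and 14 counts against 2, 1, 2 and 3 in the shams. The call was lost without any sham or without MCAO replicate C, D or E (adjusted p up to 0.0618). The call was also lost with DESeq2 (0.0109), ERCC scaling (0.0211), the replicate letter as a block (0.0152) and the compared groups alone (0.0101). At 12 h it was lost without sham replicate A, B or D or MCAO replicate C or E (up to 0.0189) and in the fit of the compared groups alone (0.103). On day 7 the MCAO libraries held 23, 7, 8, 9 and 17 counts, all above the shams with 0, 0, 6 and 0. Sham replicate C held all 6 of those counts, and without it *Ccl12* passed on day 7 (adjusted p = 0.00488, from 0.00488 to 0.118 over the libraries left out).

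*Ccl6* was present without injury, whereas *Ccl9* lay near the limit of detection, with 1 to 2 counts in each control library. *Ccl6* had the highest mean CPM of the members in the shams and the control, from 0.779 CPM in the 3 h sham to 3.24 CPM in the day 7 sham. In the 3 h sham *Ccl9* was about level with it, at 0.767 CPM and 7 counts against 6 of *Ccl6*. At 3 h after MCAO *Ccl6* had 6, 10, 7, 16 and 9 counts against 1, 3, 1 and 1, and although these did not overlap the adjusted p was 0.391. At 12 h it had 18, 35, 64, 54 and 96 counts against 7, 4, 6 and 1. The ratio of summed counts was 13.2 (8.22 to 22.7), and *Ccl6* was called (log2 fold change 3.78, standard error 0.68, adjusted p = 0.00115). On day 3 it had 9, 46, 173, 53 and 134 counts against 12, 5, 3 and 2 in the shams. Replicate A was the lowest of these MCAO libraries and held fewer counts than sham replicate A, although in CPM, at 4.80, it lay above that sham, at 4.35 CPM. The day 3 mean of 39.4 ± 32.9 CPM (SD, n = 5) was the highest group mean of any member (log2 fold change 4.04, standard error 0.66, adjusted p = 2.86e-05). On day 7 it had 16, 27, 88, 22 and 22 counts against 5, 14, 4 and 3 (2.58, 0.65, adjusted p = 0.00812). The 12 h call was lost without sham replicate C or D (adjusted p up to 0.0125), and the day 7 call without sham replicate A, C or D or MCAO replicate C (up to 0.0879). Both were lost in the fit of the compared groups alone (0.0187 and 0.018), and the day 7 call also with the replicate letter as a block (0.0124).

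*Ccl6* was also the single member that passed between neighboring times after MCAO, with a difference of 2.67 on the log2 scale from 3 h to 12 h (SE 0.56, adjusted p = 0.00625). That call was lost without MCAO 3 h replicate A, B, C or E or MCAO 12 h replicate C, D or E (adjusted p from 0.00245 to 0.0345 over the libraries left out) and in the fit of these groups alone (0.0106).

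*Ccl9* had 2, 18, 49, 9 and 48 counts on day 3 after MCAO against 2, 2, 0 and 6 in the shams. Replicate A lay within the range of the shams and the other 4 above it. The mean of 11.8 ± 10.4 CPM (SD, n = 5) was its highest. *Ccl9* was called on day 3 alone in the edgeR fit of all groups (log2 fold change 3.37, standard error 0.83, adjusted p = 0.00549). That call was lost without sham replicate A, B or C or MCAO replicate C or E (adjusted p up to 0.0313). It was also lost with ERCC scaling (0.0109), the replicate letter as a block (0.0123) and the compared groups alone (0.0275). With no filter on low counts *Ccl9* was also called at 24 h. At 24 h *Ccl9* had 3, 16, 17 and 24 counts against 0, 1, 0 and 0, which did not overlap, and an adjusted p of 0.053. Its 12 h and day 7 values gave adjusted p = 0.0485 and 0.0744.

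*Ccl5*, which draws T cells and monocytes, passed the test on day 7 alone. From 3 h to day 3 its MCAO libraries held 0 to 8 counts each, and its group means stayed between 1.34 and 2.21 CPM. On day 7 they held 26, 13, 6, 5 and 9 counts against 1, 0, 0 and 1 in the shams, and all 5 lay above all 4 shams. The mean was 6.64 ± 4.96 CPM (SD, n = 5), the ratio of summed counts 25.8 (6.83 to 218), and the rise was called (log2 fold change 4.41, standard error 0.94, adjusted p = 0.00185). Without sham replicate B the adjusted p was 0.0114 (from 0.00142 to 0.0114 over the libraries left out). Day 7 against day 3 after MCAO did not pass (1.77, 0.67, adjusted p = 0.286), nor did the difference between the effects over sham (3.16, adjusted p = 0.23), so the later rise of *Ccl5* was not shown to differ from day 3.

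*Ccr2* passed edgeR's test on day 3 alone, although DESeq2 and edgeR with no filter also called it at 12 h, and at 3 h no difference was detectable at this depth. At 3 h it had 0, 3, 1, 2 and 0 counts after MCAO and 1, 0, 1 and 2 in the shams, and the ratio of 1.17 (0.278 to 5.64) had an interval on both sides of 1. At 12 h it had 5, 2, 10, 4 and 14 counts against 0 in all 4 shams, at least 10.4-fold above the floor (adjusted p = 0.0295). At 24 h it had 10, 1, 9 and 21 counts against 0, 0, 0 and 1, with replicate B no higher in counts than the highest sham (adjusted p = 0.125). On day 3 it had 3, 18, 87, 6 and 58 counts against 0, 1, 0 and 0. All 5 libraries lay above the shams, at a mean of 16.3 ± 17.9 CPM (SD, n = 5), a ratio of summed counts of 152 (26.9 to 6040) and a fitted difference of 6.58 on the log2 scale (SE 1.13, adjusted p = 7.60e-05). On day 7 it had 0, 1, 14, 4 and 2 counts against 1, 1, 1 and 0, and the groups overlapped (adjusted p = 0.178). The difference between day 7 and day 3 after MCAO was -2.76 on the log2 scale (standard error 0.72, adjusted p = 0.0815).

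Between neighboring times after MCAO, 1 member was called from 3 h to 12 h (beside 0.376% of all genes) and 0 from 12 h to 24 h (0.0150%), from 24 h to day 3 (0.486%) and from day 3 to day 7 (0.0351%) by edgeR. DESeq2 gave the same counts, with no adjusted p for 2 members in the first and 4 in the last of these comparisons. At an unadjusted p under 0.05 there were 3, 1, 3 and 3 members. Without MCAO 12 h replicate C, D or E or 3 h replicate A, B, C or E the first count was 0, and without MCAO day 7 replicate C the last was 1. The effect over sham was also compared between neighboring times. By edgeR, 0 members passed from 3 h to 12 h, from 12 h to 24 h, from 24 h to day 3 or from day 3 to day 7, beside 0.0100%, 0.0100%, 0.0100% and 0% of all genes, with 1, 0, 0 and 1 at an unadjusted p under 0.05. DESeq2 called 0 as well, with no adjusted p for 6 members in the last. The order of the means is therefore a description. From high to low it ran 12 h, 3 h, day 3, day 7 and 24 h for *Ccl3*, and 12 h, day 3, day 7, 3 h and 24 h for *Ccl4*. It ran 24 h, 12 h, day 3, day 7 and 3 h for *Ccl12*, day 3, 12 h, day 7, 24 h and 3 h for *Ccl6*, and day 3, 24 h, 12 h, day 7 and 3 h for *Ccr2*. For *Ccl2*, *Ccl3*, *Ccl4* and *Ccl7* the highest mean was 1.85, 5.27, 2.78 and 2.44 times the lowest after MCAO, and for *Ccl6*, *Ccl12* and *Ccr2* it was 8.84, 9.31 and 30.3 times.

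Because the members of a library share its depth, their shares of the summed ligand counts show the change in make-up directly. At 3 h *Ccl4* held 22.6% (95% exact binomial interval 18.7 to 26.8%, counting error only), *Ccl3* 21.9% (18.0 to 26.1%) and *Ccl2* 16.7% (13.3 to 20.6%) of 430 counts. At 24 h *Ccl12* was the largest with 34.5% (30.5 to 38.5%) of 566, up from 6.51% (4.37 to 9.27%) at 3 h, while *Ccl3* was at 4.77% (3.17 to 6.86%). On day 3 *Ccl6* held 43.1% (39.9 to 46.3%) of 963, up from 11.2% (8.35 to 14.5%) at 3 h. Without occlusion *Ccl6* already held 57.6% (39.2 to 74.5%) of the 33 ligand counts of the control. In the day 3 sham it held 41.5% (28.1 to 55.9%) of 53, and the other shams lay between 33.3% at 3 h and 70.0% at 24 h. A large share of *Ccl6* was therefore not particular to day 3 after MCAO. These shares were compared without a test over libraries, whose values lay as follows. At 3 h the 5 libraries ran from 2.78 to 28.9% for *Ccl4*, from 13.9 to 26.3% for *Ccl3* and from 8.77 to 33.3% for *Ccl2*. The share of *Ccl12* lay between 26.6 and 45.1% in the 4 libraries of 24 h and between 1.54 and 12.9% in the 5 of 3 h. The share of *Ccl6* lay between 40.1 and 47.7% in the 4 day 3 libraries with at least 20 ligand counts, and between 7.07 and 25% at 3 h. *Ccl5* held 10.7% (8.25 to 13.6%) on day 7 and 1.78 to 3.26% at the other times, but its share in single libraries of day 7 ran from 2.18 to 29.2%.

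**Figure D3:**
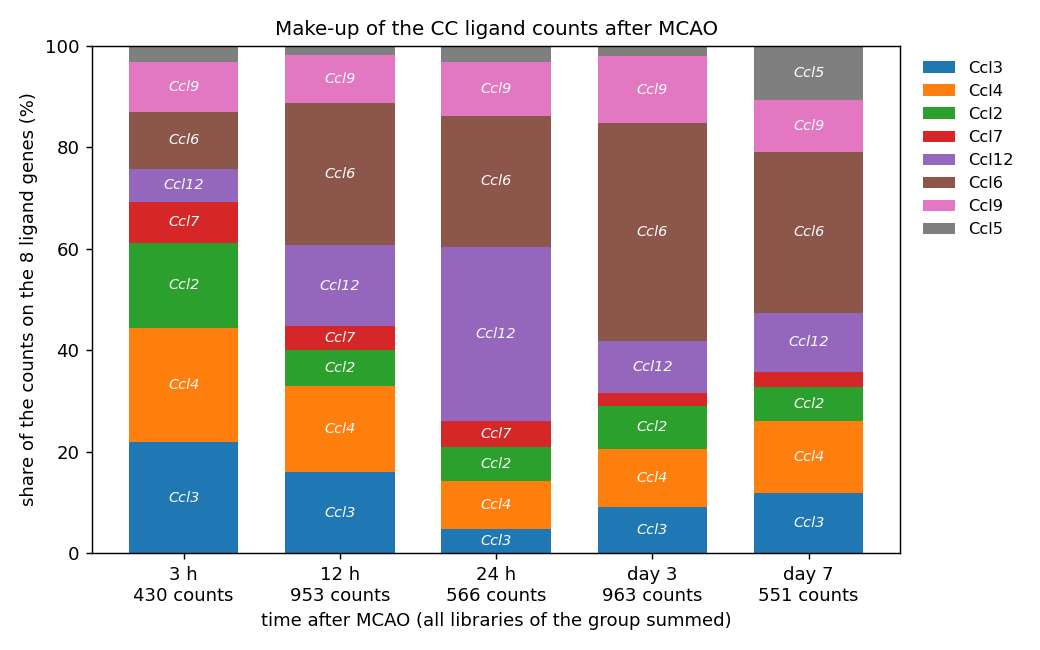
Stacked bars give the share (y axis, percent) of each of the 8 ligand genes in the ligand counts summed over the MCAO libraries of a time (x axis, with the summed counts below). *Ccl3*, *Ccl4* and *Ccl2* make up most of the 3 h bar, *Ccl12* is the largest part at 24 h and *Ccl6* on day 3, and *Ccl5* is widest on day 7.

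The libraries of a time differed together. On day 3 replicate A was the lowest of the 5 for all 9 members, with a summed level of 10.7 CPM over the 9 genes, and replicate C was the highest for 8, with 259 CPM. On day 7 replicate C was the highest for 7 members, with 172 CPM against 29.3 to 51.3 in the other 4. At 24 h replicate D was the highest for 8 members. At 12 h replicate A was the lowest for 6 members, with 15.2 CPM, and replicates C and E shared the highest values, with 177 and 236 CPM. At 3 h replicate E was the lowest for 5 members. Letters of different times do not mark the same animal or batch in the labels.

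Pearson's r of log2(CPM + 1) between members over the 24 MCAO libraries is given as a description, since the libraries share injury, time and depth. It ran from 0.01 to 0.87 over the 36 pairs, with a median of 0.49. It was highest for *Ccl3* with *Ccl4* (0.87), *Ccl2* with *Ccl7* (0.84) and *Ccl6* with *Ccr2* (0.83). The first 2 of these pairs are chromosomal neighbors, and the genes of the third lie on different chromosomes. *Ccl5* was the least like the rest, at 0.01 to 0.29, and *Ccl12*, a neighbor of *Ccl2* and *Ccl7*, was at 0.39 with *Ccl2* and 0.41 with *Ccl7*. With few counts per library, low values of r carry little.

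**Figure D4:**
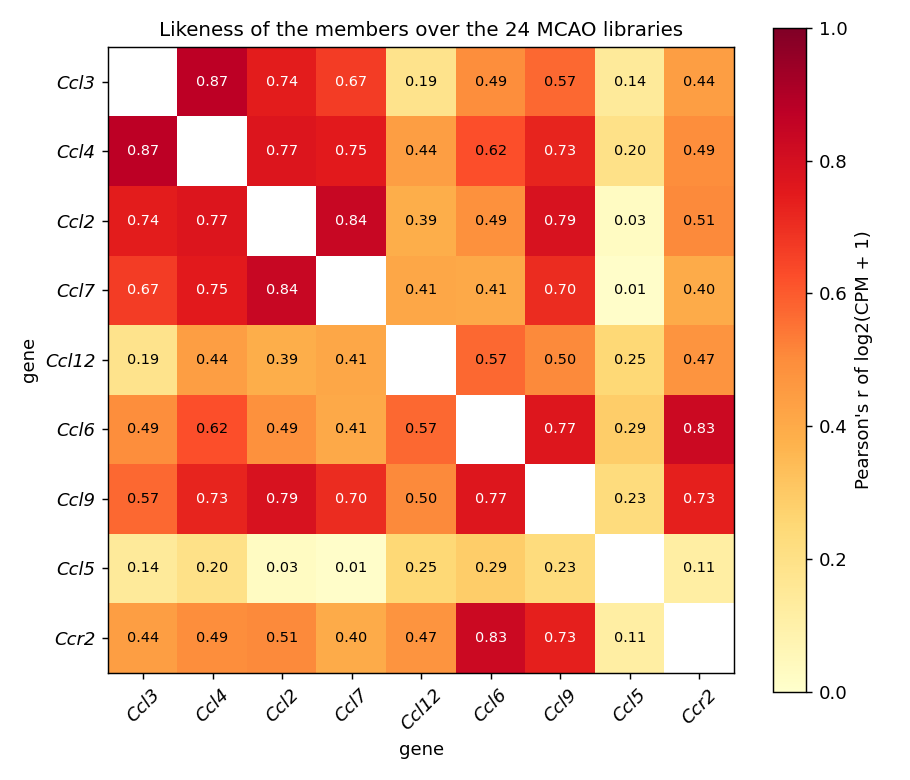
Each cell gives Pearson's r of log2(CPM + 1) between a pair of members (rows and columns) over the 24 MCAO libraries, with darker red for higher r. *Ccl3*, *Ccl4*, *Ccl2* and *Ccl7* form a block of 0.67 to 0.87. *Ccl9* is not set apart from it, at 0.79 with *Ccl2*, 0.73 with *Ccl4*, 0.70 with *Ccl7* and 0.57 with *Ccl3*. *Ccl6* is highest with *Ccr2* and *Ccl9*, and the row of *Ccl5* is pale.

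Over all 48 libraries the genes most like each member were taken from the 13871 with a mean of at least 2 CPM, again as a description. *Ccl3* and *Ccl4* were most like each other (r = 0.93). *Ccl2* was closest to *Atf3* (0.92), which encodes a stress-induced transcription factor, and then to *Ccl4* (0.90), and *Ccl7* to *Ccl2* (0.88) and *Ccl4* (0.87). *Ccl6* was closest to *Msn* (0.92), which encodes the cytoskeletal linker moesin, and *Ifitm3* (0.92), and *Ccl9* to *Msn* (0.87) and *Hmox1* (0.87), which encodes heme oxygenase 1. *Ccl12* was closest to *Cd44* (0.85), an adhesion receptor, and *Stat3* (0.84). *Ccr2* was closest to *Saa3* (0.91) and *Arg1* (0.91), the gene of arginase 1. *Ccl5* had the loosest partners, *Oasl2* (0.76), an interferon-induced gene, and *A2m* (0.75).

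Markers of the cell types the tissue could hold were read in the same libraries. The monocyte list (7 genes, of which *Ccr2* is none) was at 0 for all 7 genes in the 3 h shams and for 4 to 6 genes in the other shams, where its summed level was at most 1.90 CPM. In the control it lay at 1.14 to 3.37 CPM. After MCAO it lay at 0.911 to 3.45 CPM at 3 h, a range that overlaps the control, 2.91 to 48.2 at 12 h, 4.66 to 7.65 at 24 h, 0.534 to 65.9 on day 3 and 1.88 to 30.9 on day 7. On day 3, where *Ccr2* was at its highest, the 5 libraries held 0.534, 14.0, 65.9, 13.2 and 24.7 CPM of the monocyte list. Replicates C and E, the highest of them, were also the highest for *Ccr2*. The same replicates were the highest of day 3 for the microglia, border macrophage, neutrophil and endothelial lists, so this order was not particular to the monocyte list. Of the 7 monocyte genes, 1 was called higher on day 3 and 1 on day 7. The part of monocytes in the level of *Ccr2* was not tested.

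The neutrophil list (8 genes, 7 tested) had a summed level of 0 to 8.52 CPM in the shams, 2.23 to 14.6 in the control and 12.2 to 1712 at 12 h after MCAO, where 2 genes were called higher, as on day 3. Replicate E held the 1712 CPM and was also the highest library of that time for *Ccl3*, *Ccl4*, *Ccl5*, *Ccl6* and *Ccr2*. The microglia list (9 genes) lay at 197 to 328 CPM in the shams and at 158 to 345 CPM at 3 h and 12 h after MCAO, where 0 of its genes were called higher and 1 lower, at 12 h. It lay at 378 to 468 CPM at 24 h (0 of 9 called), at 417 to 1531 CPM on day 3 (6 of 9 higher) and at 509 to 2055 on day 7 (5 of 9 higher), with day 7 replicate C at the top. Border macrophage genes (7) had 2 higher on day 3 and 1 on day 7. Erythroid genes (5), which mark blood in the tissue, had 1 higher at 12 h, 3 on day 3 and 4 on day 7, at 34.6 to 1416 CPM after MCAO against 9.80 to 150 in the shams. The part of these cells in the levels of the members was not tested.

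**Figure D5:**
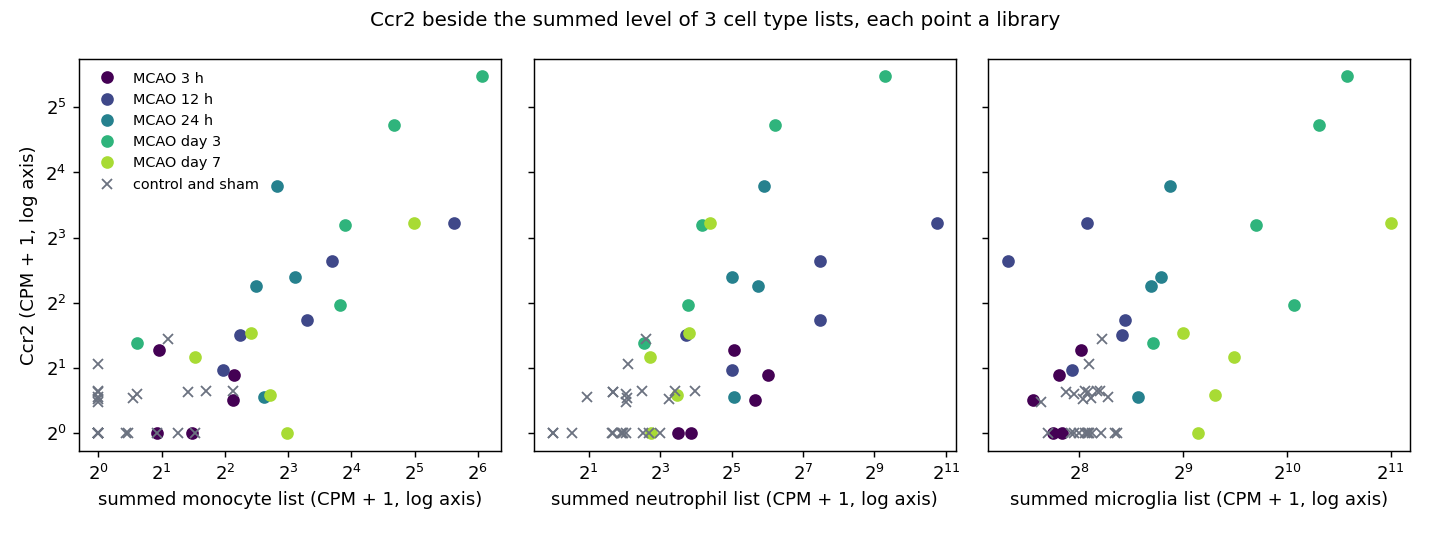
*Ccr2* (y axis, CPM + 1, log axis) beside the summed level of the monocyte, neutrophil and microglia lists (x axes, CPM + 1, log axes), with a point for each library, colored by time for MCAO and as grey crosses for control and sham. The day 3 libraries C and E are the top points in each panel, the control and sham libraries sit at the lower left, and 12 h replicate E holds the most of the neutrophil list.

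Of the remaining cell types, T cell genes (8, of which 4 were tested) had 1 called lower on day 7. On that day 5 of the 8 were at 0 in all shams, and 3 of these also in all MCAO libraries. The median fitted log2 fold change of the 4 tested genes was positive there, so the call describes 1 gene and not the list. Dendritic cell genes (5, 3 tested) had 1 lower on day 7, where 2 of the 5 were at 0 in all shams. A change in the number of these cells was not tested. Neuronal genes (6) had 1 lower on day 3 and 2 on day 7, and astrocyte genes (6) 1 higher on day 3 and 2 on day 7. Oligodendrocyte genes (6) had 1 higher on day 7, and endothelial genes (6) 1 lower at 12 h and 2 higher on day 3. Neuronal and astrocyte markers were present in every group, at 10227 CPM or more and 3177 CPM or more in sum, as cortical tissue should hold.

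The other CC chemokine, receptor and decoy receptor genes were read from a list of 30, of which 29 were listed, 7 were at 0 in all libraries, 4 had too few counts and 18 were tested. Against sham, 0 of the 18 were called at 3 h, 12 h and 24 h (4, 2 and 5 at an unadjusted p under 0.05), 2 were called higher on day 3, among them *Ccl8*, and 1 higher and 1 lower on day 7, the lower being *Ccl27a*. Their median fitted log2 fold change was 0.30, 0.96, 0.67, 1.30 and 0.21 at the 5 times.

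*Ccl8*, in the cluster of *Ccl2*, had 6, 15, 16, 6 and 20 counts on day 3 after MCAO against 0, 2, 0 and 0 in the shams. It was called there (log2 fold change 4.42, standard error 1.04, adjusted p = 0.00403). The groups did not overlap. *Ccl27a* had 26, 46, 39, 39 and 38 counts on day 7 against 109, 102, 118 and 80 in the shams, and it fell by 1.33 on the log2 scale (standard error 0.28, adjusted p = 0.00171). It lies across *Il11ra1* on the opposite strand, and since the strand setting of the counting is not given in the sources used here, its reads may include those of that gene.

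The *Ccl8* call was lost without sham day 3 replicate A, C or D or MCAO day 3 replicate C or E (adjusted p up to 0.0251). The fall of *Ccl27a* was called in each fit that left out a library of the groups compared. Of the other family genes, 0 were called on day 3 without sham replicate A, C or D or MCAO replicate C or E and 1 without sham replicate B, in place of 2, and 1 was called in place of 2 on day 7 without any sham or without MCAO replicate C, D or E of that day.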

How the data were processed

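RNA of 48 cortical samples was sequenced with a QuantSeq 3' kit. The authors aligned reads to GRCm38 with ERCC spike-ins by STAR (2.5.2b) and deposited htseq-count tables of raw counts per gene in union mode. The normalized matrix made by the authors with DESeq2 was not used. Rows of spike-ins (3.71 to 5.97% of counts) and of unassigned reads stayed out of library sizes. The genes described and all lists were chosen with earlier results of these data known. Genes above 10 counts over all libraries were fitted with edgeR 4.0.16 in R 4.3.3 (TMM factors, quasi-likelihood test, 11 groups in 1 fit), with Benjamini-Hochberg adjustment over all tested genes, and called at an adjusted p below 0.01 with a log2 fold change beyond 0.58 in either direction. Standard errors are the log2 fold change over the root of F. Folds are ratios of summed counts scaled by library size, with exact 95% intervals, or bounds from a floor of 3 counts over the group where a sham group held none. Intervals cover counting error only, since they come from counts summed over a group and leave out the spread between its libraries. Reads carried no molecular identifiers, so repeated reads of a molecule are not covered either. Named genes were all 9 members, other CC family genes called against sham (1 of which is counted but not reported here), and for each member the 2 genes with the highest r of log2(CPM + 1) among those of a mean of at least 2 CPM. Alternatives were DESeq2 (1.42.0), its size factors, ERCC scaling, filterByExpr, no filter, fits of the compared groups alone, the replicate letter as a block, each library left out, CPM without TMM factors, a pseudocount of 0.1 and a minimum of 5 CPM. The scripts were tested on simulated data.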

Additional observations from a re-analysis of the deposited data

Results flagged for a closer look

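Of 99 groups tested for a library that stands apart by Dixon's test (9 members in 11 groups), 32 had one. Chance gives about 1 in 20 for continuous values, a rate that does not hold for the 23 control and sham groups among them, where a library with any count beside libraries at 0 stands apart. Of the 32, 9 were MCAO groups, and day 7 replicate C was the library in 6 of them. In CPM it held 16.7 of *Ccl2* (next highest 1.25), 28.6 of *Ccl3* (4.07), 33.3 of *Ccl4* (6.35), 52.4 of *Ccl6* (13.8), 17.8 of *Ccl9* (6.26) and 8.33 of *Ccr2* (1.92). The same library held the most of the microglia (2055 CPM), monocyte (30.9 CPM), border macrophage (169 CPM) and neutrophil (20.2 CPM) lists on day 7. The part of these cells was not tested. *Ccl3* stood apart in 12 h replicate E at 59.0 CPM (next 15.1) and in day 3 replicate C at 28.0 CPM (next 5.73), and *Ccl6* in 24 h replicate D at 40.3 CPM (next 14.5).

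The flags without occlusion rest on 1 to 6 counts each, mostly in a group whose other libraries were at 0. In the control, replicate A held 0.558 CPM of *Ccl3*, *Ccl4*, *Ccl7* and *Ccl12* alike, a single count of each, replicate B 1.12 CPM of *Ccl9* and replicate D 1.71 CPM of *Ccr2*. In the 3 h shams, *Ccl5* was at 0.791 CPM in A, *Ccl6* at 1.73 CPM in B and *Ccl7* at 0.545 CPM in D. In the 12 h shams, *Ccl3* was at 0.559 CPM in A, and replicate C held 0.370 CPM of *Ccl4*, 1.11 of *Ccl5*, 1.48 of *Ccl7* and 1.85 of *Ccl12*. In the 24 h shams, replicate D held 0.524 CPM of *Ccl5*, 2.1 of *Ccl7* and 0.524 of *Ccr2*, replicate B 0.632 CPM of *Ccl9* and replicate C 0.610 CPM of *Ccl12*. In the day 3 shams, *Ccl3* and *Ccl7* were at 0.467 CPM each in C and *Ccr2* at 0.462 CPM in B, and in the day 7 shams *Ccl12* was at 3.27 CPM in C.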

How the results depend on the processing

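Of 705 single member values against sham under the alternatives, 617 kept their direction and side of the threshold, 59 lost and 26 gained the call, and 3 turned in direction, all of *Ccr2* at 3 h (0.19 in the full fit), which was -0.13 without sham replicate B, -0.41 without MCAO replicate B and -0.01 without MCAO replicate D, in a range of -0.41 to 0.76 over the libraries left out. Members called against sham at 3 h, 12 h, 24 h, day 3 and day 7 were 0, 3, 1, 5 and 3. With no filter they were 3, 6, 2, 7 and 6, with DESeq2 1, 6, 1, 5 and 5, and in fits of the compared groups alone 2, 0, 1, 3 and 1. With ERCC scaling, which moved the median of all genes by -0.10, -0.11, 0.12, -0.23 and 0.09 on the log2 scale, they were 0, 3, 1, 3 and 3. With the replicate block they were 0, 2, 1, 3 and 1. Same-letter MCAO and sham libraries deviated together little (r from -0.26 to 0.15, median 0.045, over 20 pairs). Pairs of different letters had a median of 0.007 over 76. A weak r cannot exclude a pairing or a shared batch, and no label states whether the letters pair the samples. With a library left out the members called against sham ranged over 0 to 0, 0 to 4, 0 to 1, 2 to 7 and 1 to 3.

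Against control, members called were 1, 5, 2, 7 and 5 with no filter and 3, 1, 2, 1 and 1 in fits of the compared groups alone, and 1 on day 7 with ERCC scaling or the replicate block. With a library left out they ranged over 0 to 0, 1 to 4, 1 to 1, 1 to 6 and 0 to 3. From 3 h to 12 h after MCAO, 2 were called with no filter and 0 in the fit of these groups alone, and with a library left out 0 to 1, as from day 3 to day 7. The 2 other neighboring times, the 4 differences of effects and the 5 comparisons of sham with control stayed at 0 to 0, and the mean over the 5 times at 9 to 9. Of other family genes, 1 was called on day 3 with ERCC scaling, the replicate block or the compared groups alone, and with a library left out 0 to 3 on day 3, 1 to 2 on day 7 and 0 to 0 before. The replicate block moved no other count of members by more than 1.5 times, and over all genes it moved the calls at 12 h from 82 to 53 against sham and from 7 to 4 for sham against control. The causes were not tested. All 132 levels moved by less than 1 SD without TMM factors. Of 36 nearest genes, 25 were another gene with a pseudocount of 0.1 or a minimum of 5 CPM, so the nearest genes depend on these settings. Few counts per library limit the precision throughout.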
